A study of Mus musculus with 52 samples.

Results

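The genes followed here encode the machinery that licenses DNA for replication: the 6 subunits of the MCM helicase hexamer (Mcm2, Mcm3, Mcm4, Mcm5, Mcm6 and Mcm7), the helicase loaders Cdt1 and Cdc6, the Cdt1 inhibitor geminin (Gmnn), and Mcm10, which acts when the loaded helicase is switched on. The 10 genes were taken as a family by name, out of 18194 genes measured, and 27 of 34958 probe sets annotated to a single gene belonged to them. A probe set is a group of short probes that reads 1 transcript region. Where a gene had several, the one with the highest mean over all arrays stood for it.

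Liver RNA of C57Bl6/N mice, labelled male and given as 8 to 12 weeks old, was hybridized to 52 arrays, 1 per sample. The operated mice had undergone partial hepatectomy, a 2/3 resection of the liver after which the remnant regrows, and had standard diet before and after it. Livers were taken after 1 hour (3 arrays), 6 hours and 12 hours (4 each), 24 hours (11), 48 hours, 3 days, 4 days and 1 week (4 each), 2 weeks (2), 4 weeks (4) and 3 months (3), 47 arrays in all. They were compared with 5 arrays from untreated mice of the same strain, and no sham-operated group was analysed here, so the operation and the loss of tissue cannot be told apart. Nothing in the labels says whether each array of a time point stands for a mouse of its own, so the p-values speak of the spread between these samples, which may be technical. Whole liver was sampled, so fewer cells of a type and less RNA per cell cannot be told apart either.

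Before S phase, the origin recognition complex and Cdc6 bind origins of replication, and Cdt1 brings MCM hexamers that are loaded around the DNA in an inactive form. In S phase the hexamers are activated, with Cdc45 and the GINS complex, into the replicative helicase, while geminin binds Cdt1 and destruction of Cdt1 by ubiquitin ligases prevents a second round of loading. Hepatocytes of the adult liver are mostly quiescent, and many re-enter the cell cycle after partial hepatectomy. Several of the licensing genes are known targets of E2F transcription factors.

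The 6 hexamer genes lie on 5 chromosomes of the mouse genome (GRCm38.p6), with Mcm3 and Mcm6 both on chromosome 1. The hexamer genes are annotated with Mcm2 at chr6:88883474-88898780, Mcm3 at chr1:20802966-20820312, Mcm4 at chr16:15623897-15637400, Mcm5 at chr8:75109468-75128439, Mcm6 at chr1:128331575-128359705 and Mcm7 at chr5:138164583-138172111. The others are Mcm10 at chr2:4990724-5012791, Cdt1 at chr8:122568015-122573130, Cdc6 at chr11:98907709-98923942 and Gmnn at chr13:24751845-24761937. RefSeq promoter windows, from 250 bases before to 50 after the annotated start, were found for 8 of the 10 genes, which leaves Mcm4 and Gmnn unmatched. They were searched on both strands for 4 words of E2F type, TTTCCCGC, TTTGGCGC, TTTCGCGC and TTTGCCGC. Neighbouring words can overlap, and the reverse form of one word can share bases with the forward form of another. At least 1 word was present in 6 of the 8 genes (75.0%) and in 704 of 27025 genes with a window (2.6%). Upstream of the start used for each window, 4 of the 8 and 583 of all genes (2.16%) held one.

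Mcm6 had 3 words, first bases at -110, -106 and -47 from the start, and Mcm5 had 2, at -153 and -149. In both genes a forward and a reverse word overlapped. Mcm7 had 1 at -165 and 1 at 17, Cdc6 had 1 at -138, Mcm3 had 2 at 20 and 39, and Cdt1 had 1 at 33. Positions count from the start on which each window was built. For these windows of Mcm5, Mcm7 and Cdc6 that start lies inside the gene span given above. The words at -165 (Mcm7) and -138 (Cdc6) lie inside the span too, while those of Mcm5 lie before it. A further Mcm7 window, chr5:138171217-138171516, held no word. No word was in the windows of Mcm2 and Mcm10. The stretches upstream of the annotated genes are shown for 4 genes. They set the 2 with the largest changes at 48 hours (Mcm5 and Mcm6) beside the 2 without a word (Mcm2 and Mcm10). Of the latter, Mcm2 rose and Mcm10 did not, which for Mcm10 rests on the 1 probe set that was not near background. The stretches are given in the 5′ to 3′ direction of the gene's own strand, and capitals mark the words. They lie at chr8:75109339-75109467 (Mcm5, plus strand), chr1:128359706-128359875 (Mcm6, minus strand), chr6:88898781-88898950 (Mcm2, minus strand) and chr2:5012792-5012961 (Mcm10, minus strand).
Mcm5: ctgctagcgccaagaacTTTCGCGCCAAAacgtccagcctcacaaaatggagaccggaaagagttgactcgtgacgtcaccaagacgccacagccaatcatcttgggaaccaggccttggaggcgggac
Mcm6: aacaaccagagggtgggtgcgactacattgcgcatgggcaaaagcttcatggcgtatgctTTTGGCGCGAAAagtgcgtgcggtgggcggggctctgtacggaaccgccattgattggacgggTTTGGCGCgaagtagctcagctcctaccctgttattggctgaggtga
Mcm2: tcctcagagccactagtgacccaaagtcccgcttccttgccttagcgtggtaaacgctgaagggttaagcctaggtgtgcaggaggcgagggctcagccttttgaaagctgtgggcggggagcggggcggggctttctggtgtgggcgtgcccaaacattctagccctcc
Mcm10: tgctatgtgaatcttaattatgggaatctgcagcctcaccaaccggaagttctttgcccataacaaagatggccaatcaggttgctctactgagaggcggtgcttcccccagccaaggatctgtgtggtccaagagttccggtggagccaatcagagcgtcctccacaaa
A match describes these letters and is not a binding site, and a window without one only lacks these letters.

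Values are log2 signals as deposited, changes are log2 differences ± SE from one limma fit of all 12 groups, and a change is called where the Benjamini-Hochberg adjusted p over all 18194 genes lies under 0.05. Over all probe sets, the median signal of the untreated arrays was 4.04, and signals near or below it are not separated from background. Hybridization control transcripts, added in fixed amounts, had operated group means of 9.73 to 10.38, against 10.85 ± 0.29 (SD, n = 5) in untreated arrays. Poly-A controls (operated group means 4.89 to 6.67, against 6.88 ± 0.43 untreated) and the Gapdh 3' minus 5' difference (0.65 to 1.10, against 1.61 ± 0.57 untreated) were also lower in the operated groups. The 24-hour replicates 9, 10 and 11, labelled male, had a signal of 9.12 to 9.48 for Xist, a long RNA made from the silenced X chromosome in female cells, and the other 49 arrays had 2.51 to 3.81. Results at 24 hours are therefore given with and without these 3 arrays. Within their groups, 12-hour replicate 1 had the highest value of all 10 licensing genes, and 3-day replicate 2 and 1-week replicate 4 the lowest of all 10.

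**Figure D1:**
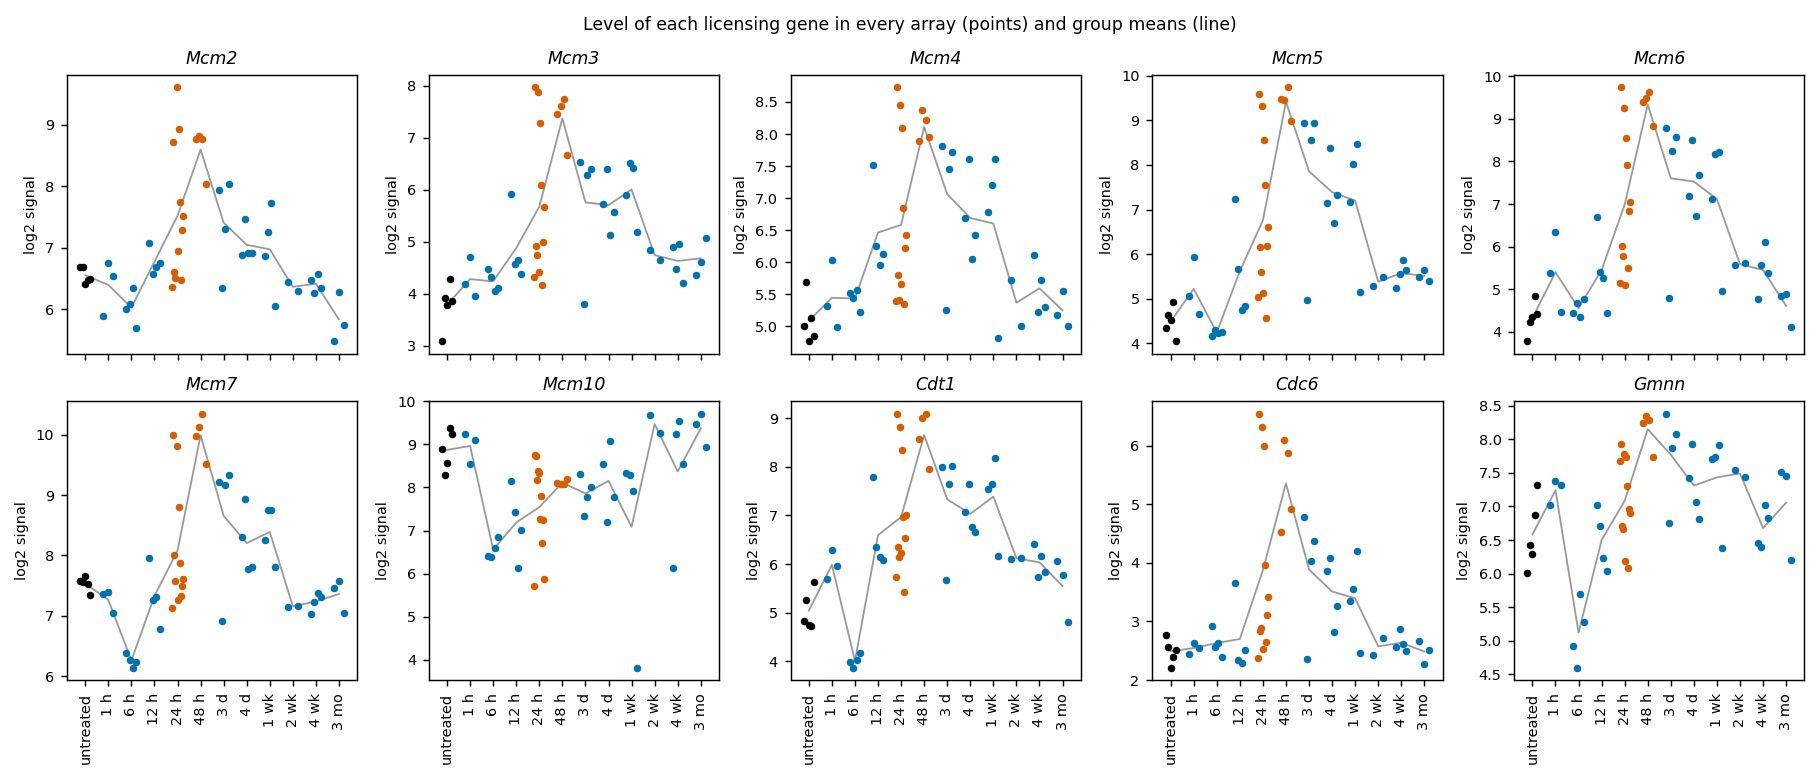
Log2 signal of each of the 10 licensing genes (vertical axis, own scale per panel) in every array, from untreated (black) through the 11 times after partial hepatectomy, with 24 and 48 hours in orange and a line through the group means. For 9 genes the 48-hour mean is the highest, with 24-hour arrays spread over up to 5.03 log2 units, whereas Mcm10 is lowest at 6 hours and highest at 2 weeks.

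At 48 hours after hepatectomy the licensing genes stood at their highest group mean, with Mcm10 the exception. Against untreated liver, 9 of 10 rose and 0 fell, where 17.4% of all genes rose and 13.4% fell. The median change of the 10 genes was 2.94, against -0.04 over all genes. In the 9 genes that rose, the lowest 48-hour array exceeded the highest untreated array, a separation upwards that 15.8% of all genes showed.

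The largest rises were those of Mcm6 and Mcm5, ATPase subunits of the hexamer. Mcm6 read 9.39, 9.49, 9.63 and 8.83 at 48 hours, against 3.78, 4.24, 4.36, 4.83 and 4.42 in untreated liver. The change was 5.01 ± 0.74 (adjusted p = 2e-06), an estimate of 32.2-fold. The untreated signal lay near background, so this fold may be understated, and it carries the error of the fit. Mcm5 read 9.48, 9.46, 9.74 and 8.98 at 48 hours, against 4.34, 4.63, 4.52, 4.92 and 4.05 untreated. It changed by 4.93 ± 0.75 (adjusted p = 3.7e-06), an estimate of 30.4-fold with the same limits. In both genes the 48-hour arrays lay within 1 log2 unit of each other and far above the untreated ones, with replicate 4 the lowest.

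Mcm3 read 7.46, 7.60, 7.75 and 6.67 at 48 hours, against 3.09, 3.92, 3.79, 4.29 and 3.86 untreated, and rose by 3.58 ± 0.57 (adjusted p = 6.3e-06). Mcm4, another ATPase subunit, read 7.89, 8.38, 8.22 and 7.95 at 48 hours, against 5.00, 5.70, 4.77, 5.14 and 4.85 untreated. Its rise was 3.02 ± 0.56 (adjusted p = 6.7e-05), or 8.10-fold. Untreated Mcm3 lay at the background level and untreated Mcm4 above it, so the estimated fold of Mcm3 (12.0) may again be understated.

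Mcm7 and Mcm2 already had a clear signal in untreated liver. Mcm7 read 9.98, 10.13, 10.35 and 9.51 at 48 hours, against 7.57, 7.56, 7.66, 7.53 and 7.35 untreated, a rise of 2.46 ± 0.42 or 5.49-fold (adjusted p = 2.3e-05). Mcm2, a subunit phosphorylated by the Dbf4-dependent kinase, read 8.77, 8.81, 8.77 and 8.03 at 48 hours, against 6.69, 6.69, 6.41, 6.47 and 6.5 untreated. It rose by 2.04 ± 0.43 or 4.12-fold (adjusted p = 0.00032). A second Mcm2 probe set read 7.54 ± 0.50 (SD, n = 4) at 48 hours, against 3.65 ± 0.17 (SD, n = 5) untreated. It rose by 3.88 ± 0.56 (limma, adjusted p = 1.6e-06 over all probe sets), so the size for Mcm2 depends on the probe set.

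Both loaders rose. Cdt1 read 8.56, 9.0, 9.09 and 7.96 at 48 hours, against 4.84, 5.26, 4.75, 4.73 and 5.64 untreated, a change of 3.61 ± 0.52 or 12.2-fold (adjusted p = 1.5e-06). Cdc6, the ATPase that binds the origin recognition complex, read 4.53, 6.10, 5.88 and 4.93 at 48 hours, against 2.77, 2.56, 2.21, 2.39 and 2.52 untreated. Its change was 2.87 ± 0.60 (adjusted p = 0.00033), an estimate of 7.31-fold. This fold may be understated, since the untreated Cdc6 arrays all lay below the median of all probe sets. A second Cdt1 probe set rose by 2.87 ± 0.52 (adjusted p = 5.3e-05 over all probe sets). The remaining one read 1.80 ± 0.25 (SD, n = 4) at 48 hours and 1.78 ± 0.11 (SD, n = 5) untreated, below the median of all probe sets in both groups.

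The inhibitor Gmnn read 8.24, 8.35, 8.28 and 7.73 at 48 hours, against 6.01, 6.42, 6.29, 6.88 and 7.32 untreated. It rose by 1.57 ± 0.35 or 2.96-fold (adjusted p = 0.00071), the smallest rise among the 9 genes. Mcm10 stood apart. It read 8.11, 8.07, 8.07 and 8.19 at 48 hours, against 8.89, 8.28, 8.56, 9.38 and 9.24 untreated, a difference of -0.76 ± 0.63 (adjusted p = 0.37). All 4 of its 48-hour arrays lay under the lowest untreated array, a separation downwards found for 11.2% of all genes. The 2 other Mcm10 probe sets read 4.04 ± 0.25 and 2.58 ± 0.16 at 48 hours (SD, n = 4), against 4.24 ± 0.55 and 2.50 ± 0.23 untreated (SD, n = 5), both near or below background and not called. The bright Mcm10 signal of untreated liver thus rests on 1 probe set.

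Over the 27 probe sets of the 10 genes, 21 rose at 48 hours, 0 fell and 6 did not pass, and 4 of these 6 had every group mean below the median of all probe sets. With the hybridization control level as a covariate, which differed between untreated and operated arrays, 8 of the 10 genes rose at 48 hours (7.88% of all genes in that fit), with a median change of 2.24, and Gmnn stood at 0.95 (adjusted p = 0.066). The 9 calls at 48 hours held without 7 arrays held doubtful from earlier results of these data (the 24-hour replicates 1, 9, 10 and 11, untreated replicate 1, 1-week replicate 4 and 4-week replicate 1). Of these arrays only untreated replicate 1 belongs to the groups compared. The others bear on this contrast mainly through the shared estimate of spread, so leaving them out tests the calls little. The 9 calls also held when any 1 array was left out.

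At 6 hours after the operation, ahead of the rise, 3 licensing genes had fallen and 0 had risen against untreated liver (10.5% and 11.4% of all genes). Gmnn read 4.92, 4.60, 5.69 and 5.28 at 6 hours, against 6.01, 6.42, 6.29, 6.88 and 7.32 untreated, and fell by 1.46 on the log2 scale (SE 0.35, adjusted p = 0.0014). Mcm10 read 6.40, 6.39, 6.60 and 6.84 at 6 hours, against 8.28 to 9.38 untreated, a change of -2.31 ± 0.63 (adjusted p = 0.0052). Mcm7 read 6.39, 6.27, 6.14 and 6.24 at 6 hours, against 7.35 to 7.66 untreated, a change of -1.27 ± 0.42 (adjusted p = 0.023).

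None of the 6-hour arrays of these 3 genes reached the lowest untreated array. Cdt1 read 3.98, 3.87, 4.03 and 4.17 at 6 hours and also lay below all untreated arrays, but its change of -1.03 ± 0.52 did not pass (adjusted p = 0.17). In all, 5 of 10 genes were separated downwards at 6 hours, against 15.1% of all genes, and 0 upwards, against 14.6%. The fifth was Mcm2 (-0.53 ± 0.43, adjusted p = 0.44). The call of Mcm7 was lost without 6-hour replicate 3 (adjusted p = 0.055), and its other 3 probe sets, at -0.11, -0.70 and -0.90, did not pass. The 2 other Mcm10 probe sets did not pass at 6 hours. At 1 hour, 0 of 10 genes rose or fell in limma at an adjusted or an unadjusted p under 0.05 (3.67% of all genes rose and 1.37% fell), with adjusted p between 0.40 and 0.98.

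At 12 hours, by the brightest probe set of each gene, Cdt1 was the 1 licensing gene that rose and Mcm10 the 1 that fell (17.9% and 12.0% of all genes). Cdt1 read 7.79, 6.36, 6.15 and 6.08 at 12 hours, against 4.73 to 5.64 untreated, and changed by 1.55 ± 0.52 (adjusted p = 0.02). All 4 arrays lay above the untreated ones, but replicate 1 stood well above the rest, and without it the change was 1.15 (adjusted p = 0.12). Mcm10 read 8.16, 7.43, 6.14 and 7.02 at 12 hours, a change of -1.68 ± 0.63 (adjusted p = 0.039) that no longer passed without any 1 of 6 single arrays. Leaving out 12-hour replicate 3 moved it to -1.33 (adjusted p = 0.15). Mcm4 changed by 1.38 ± 0.56 and Mcm3 by 1.09 ± 0.57, and both were separated upwards from the untreated arrays without passing (adjusted p = 0.057 and 0.15). With Cdt1, 3 genes were separated upwards at 12 hours, against 19.5% of all genes. The second probe sets of Mcm2 (1.53 ± 0.56) and of Mcm4 (1.96 ± 0.71) rose at 12 hours (limma, adjusted p = 0.034 each over all probe sets). With the mean of each gene's probe sets Mcm4 passed and Cdt1 did not.

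By 24 hours 7 of 10 licensing genes had risen and 1 had fallen against untreated liver (18.9% and 12.8% of all genes). The risers were Mcm6 (2.66 ± 0.59, adjusted p = 0.00052), Mcm5 (2.27 ± 0.61, adjusted p = 0.0034), Cdt1 (1.92 ± 0.42, adjusted p = 0.00041), Mcm3 (1.89 ± 0.46, adjusted p = 0.0012), Mcm4 (1.49 ± 0.45, adjusted p = 0.0089), Cdc6 (1.39 ± 0.48, adjusted p = 0.024) and Mcm2 (0.97 ± 0.34, adjusted p = 0.027). Mcm7 (0.55 ± 0.34, adjusted p = 0.22) and Gmnn (0.50 ± 0.28, adjusted p = 0.18) did not pass. Mcm10 fell (-1.33 ± 0.51, adjusted p = 0.041), but this call was lost when any 1 of 9 arrays was left out (adjusted p between 0.052 and 0.096). The call of Mcm2 was lost without untreated replicate 3, 4 or 5 or 24-hour replicate 2 (0.85 to 0.95, adjusted p between 0.051 and 0.057), and that of Cdc6 without untreated replicate 3 (1.32, adjusted p = 0.057). The second Mcm2 probe set rose by 2.16 at 24 hours and was called over all probe sets.

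These means cover arrays that differed widely from each other. Mcm6 in the 24-hour replicates 1 to 11 read 5.15, 9.74, 6.02, 5.79, 9.25, 5.09, 8.54, 7.92, 5.50, 6.83 and 7.05, and all 11 lay above the highest untreated array (4.83), a separation that 6.55% of all genes showed. No other of the 10 genes was separated from the untreated arrays at 24 hours, and none downwards (2.41% of all genes). Replicates 2 and 5 lay above the lowest 48-hour array (8.83), while replicates 1, 4, 6 and 9 lay within 1 log2 unit of the highest untreated array. Mcm5 read 5.04, 9.59, 6.17, 5.61, 9.33, 5.13, 8.55, 7.55, 4.57, 6.19 and 6.6 in the same order, again with replicates 2, 5, 7 and 8 on top.

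Cdc6 showed the same division, with 6.55, 6.33, 5.99 and 3.97 in replicates 2, 5, 7 and 8 and 2.37 to 3.42 in the other 7 arrays. Mcm7 was near its untreated level in most arrays, at 10.00, 9.81 and 8.81 in replicates 2, 5 and 7, with a median of 7.61 over the 11 arrays, against 7.35 to 7.66 untreated. For 6 of the 10 genes the 4 highest arrays were replicates 2, 5, 7 and 8, and for the other 4 genes replicates 2 and 5 were among the 4 highest. The range over the 11 arrays ran between 1.84 (Gmnn) and 5.03 (Mcm5), and in 10 of 10 genes the 24-hour SD was larger than the pooled SD of the other groups. For Mcm5 these were 1.76 and 0.91, for Cdc6 1.62 and 0.56, and for Mcm10 1.08 and 0.96.

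The position of the arrays differed for Gmnn and Mcm10. Gmnn in replicates 1 to 11 read 7.67, 7.93, 6.71, 6.66, 7.78, 6.19, 7.73, 7.3, 6.09, 6.96 and 6.90, so replicate 1, among the lowest for most of the hexamer genes, was among the 4 highest for Gmnn. Mcm10 read 5.72, 8.75, 8.72, 8.18, 8.37, 8.34, 7.26, 7.81, 6.71, 7.24 and 5.88, and 0 of the 11 arrays exceeded the highest untreated one. Its lowest arrays were replicates 1, 11 and 9, of which 1 had a Gapdh 3' minus 5' difference of 2.32 and 9 and 11 had Xist signal. The part of these features in the Mcm10 values was not tested further than by leaving arrays out.

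Without the 3 arrays with Xist signal the 7 rises at 24 hours were kept and the fall of Mcm10 did not pass. Without the 7 doubted arrays the same 7 genes rose, with Mcm5 at 2.89 ± 0.63, and Mcm10 stood at -0.66 ± 0.30 (adjusted p = 0.10). Without replicates 2 and 5, 5 genes still rose, with Mcm6 at 2.11 ± 0.53 (adjusted p = 0.002), whereas Cdc6 (0.82 ± 0.38, adjusted p = 0.098) and Mcm2 (0.60 ± 0.28, adjusted p = 0.10) did not pass. With the hybridization control level as a covariate 0 of 10 genes rose at 24 hours and Mcm10 fell, where 7.67% of all genes rose and 5.66% fell. Mcm6 then stood at 1.22 ± 0.66 (adjusted p = 0.24), and the median over the 10 genes was 0.67. With the Gapdh difference as a covariate 3 rose, which were Mcm3, Mcm6 and Cdt1, and the share of all genes in that fit is not given here.

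**Figure D2:**
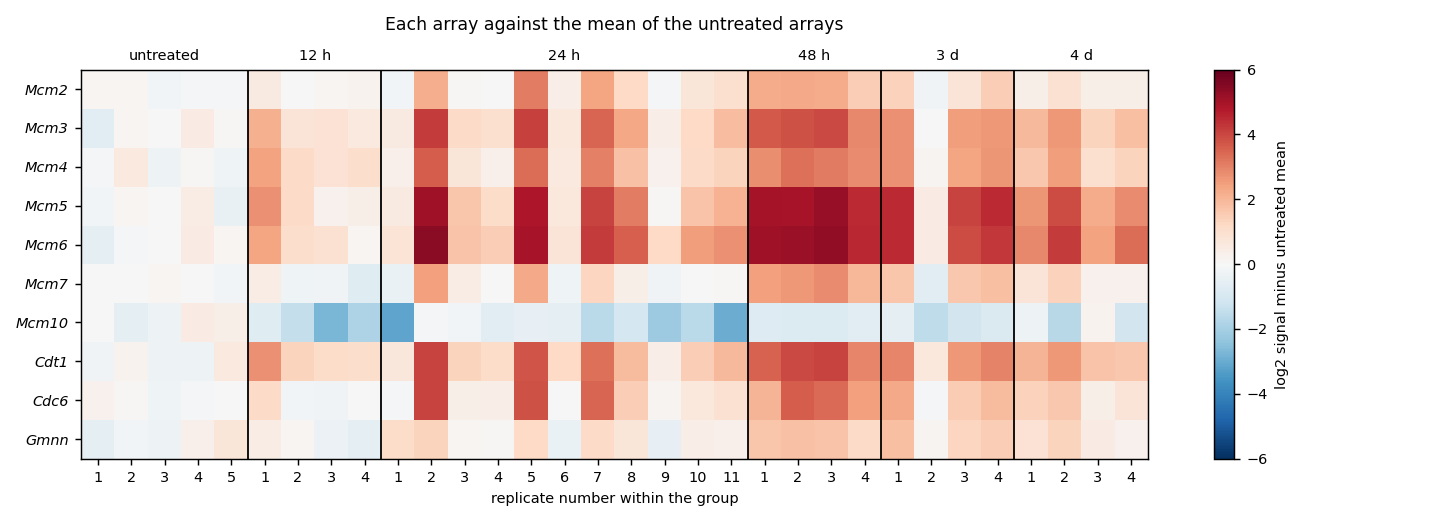
Log2 signal of each array minus the mean of the untreated arrays (colour, red higher and blue lower) for the 10 licensing genes (rows) in the untreated, 12-hour, 24-hour, 48-hour, 3-day and 4-day arrays (columns, by replicate number). The 24-hour replicates 2, 5 and 7 are red or light red across the hexamer and loader genes, and replicate 8 is lighter and pale for Mcm7. The 3-day replicate 2 is pale in every row but Mcm10, and the Mcm10 row is blue or pale throughout.

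The 48-hour group was set against the 24-hour group directly, a contrast without the untreated arrays. At 48 hours 6 of 10 genes were higher and 0 lower than at 24 hours (3.57% and 1.91% of all genes). These were Mcm5 (2.66 ± 0.66, adjusted p = 0.0084), Mcm6 (2.35 ± 0.64, adjusted p = 0.02), Mcm7 (1.91 ± 0.37, adjusted p = 0.00049), Mcm3 (1.69 ± 0.49, adjusted p = 0.031), Cdt1 (1.68 ± 0.45, adjusted p = 0.018) and Gmnn (1.07 ± 0.30, adjusted p = 0.027). Of the other 4, Mcm4 (1.53 ± 0.49, adjusted p = 0.053), Cdc6 (1.48 ± 0.52, adjusted p = 0.086) and Mcm2 (1.08 ± 0.37, adjusted p = 0.077) lay close to the threshold.

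In each of the 10 genes the ranges of the 2 times overlapped, since replicates 2, 5 and mostly 7 at 24 hours reached 48-hour values. The count was sensitive to single arrays. It was 3 without 48-hour replicate 1, 2 without 48-hour replicate 2 or 3, and 9 without 24-hour replicate 2, 5 or 7. It was 2 without the 3 arrays with Xist signal (Mcm5 and Mcm7), 2 without the 7 doubted arrays (Mcm7 and Gmnn), and 9 without 24-hour replicates 2 and 5 together. Mcm7 was called in each of these fits. Set against 12 hours, 24 hours gave 0 genes higher or lower (5.13% and 4.58% of all genes) and 4 at an unadjusted p under 0.05 in limma. With array weights 6 were higher, and 6 without the doubted arrays. The shares of all genes in those alternative fits are not given here.

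**Figure D3:**
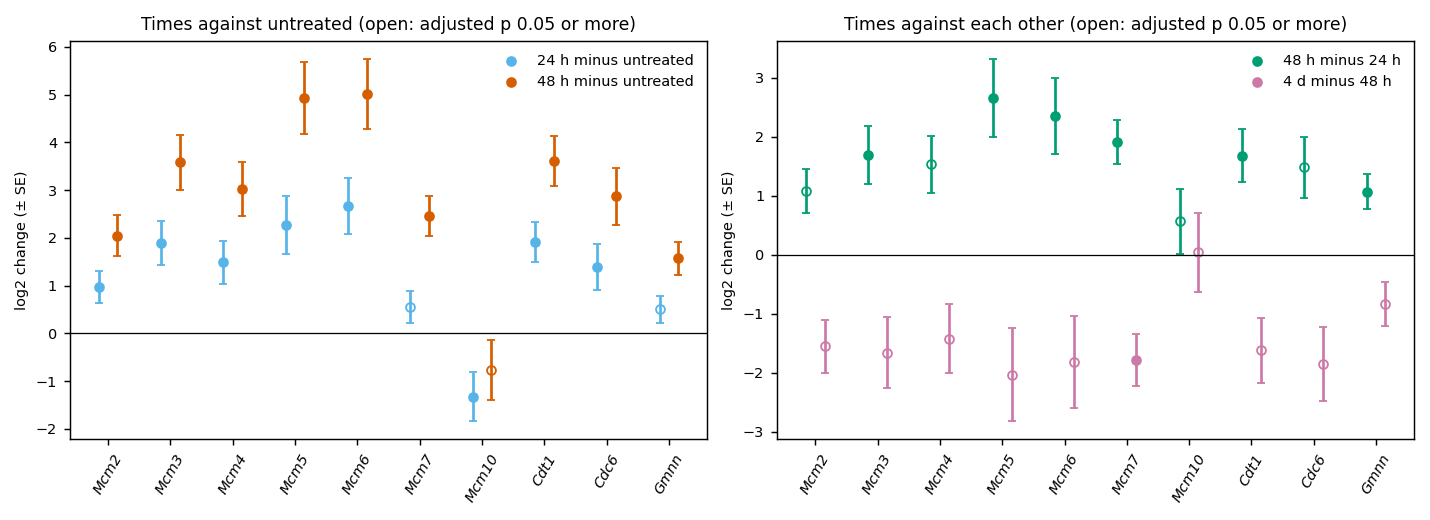
Log2 change ± SE of the 10 licensing genes from the limma fit, with 24 hours minus untreated and 48 hours minus untreated on the left, and 48 hours minus 24 hours and 4 days minus 48 hours on the right, where open points have an adjusted p of 0.05 or more. At 48 hours 9 genes lie between 1.57 and 5.01 above untreated and Mcm10 lies at -0.76, and 4 days lie below 48 hours for 9 genes, of which Mcm7 passed.

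After 48 hours part of the family stayed above untreated liver until 1 week. At 3 days 7 of 10 genes were higher than untreated and 0 lower (21.7% and 17.7% of all genes), with Mcm5 at 3.36 ± 0.75 and Mcm6 at 3.28 ± 0.74, followed by Cdt1, Mcm3, Mcm4, Gmnn and Mcm7. Mcm6 read 8.79, 4.80, 8.25 and 8.57 at 3 days, so that replicate 2 reached the untreated range while the other 3 arrays lay just under the 48-hour arrays. This replicate had a hybridization control level of 10.21, against 9.57 to 9.59 in the other 3 arrays, and a poly-A level of 6.19, against 4.52 to 5.24. Without it Cdc6 and Mcm2 passed as well, at 1.91 and 1.21, which makes 9 genes. The 3-day call of Mcm7 (1.12 ± 0.42, adjusted p = 0.031) was lost without untreated replicate 5 or without 3-day replicate 1, 3 or 4 (0.89 to 1.08, adjusted p between 0.056 and 0.13). In 2 genes, Cdt1 and Mcm5, all 4 arrays were separated upwards from untreated at 3 days, against 16.9% of all genes. Over all probe sets, 1 of the 3 for Mcm10 was called lower at 3 days.

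At 4 days 5 of 10 were higher than untreated and 0 lower (18.8% and 14.1% of all genes). These were Mcm6 (3.20 ± 0.74), Mcm5 (2.90 ± 0.75), Cdt1 (1.99 ± 0.52), Mcm3 (1.92 ± 0.57) and Mcm4 (1.60 ± 0.56), the last of which was lost without 4-day replicate 2 (1.30, adjusted p = 0.11). Mcm6 read 7.19, 8.50, 6.73 and 7.69 at 4 days, each above all untreated arrays and below all 48-hour arrays. In 8 genes the 4-day arrays lay above all untreated arrays, against 15.9% of all genes.

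At 1 week the same 5 genes were higher than untreated and 1 gene, Mcm10, was lower (21.8% and 14.9% of all genes). Mcm6 read 7.11, 8.17, 8.23 and 4.95 at 1 week, Mcm5 changed by 2.71 ± 0.75 and Cdt1 by 2.34 ± 0.52. The lower value of Mcm10 (-1.78 ± 0.63, adjusted p = 0.024) rested on replicate 4, which read 3.82 beside 8.34, 8.28 and 7.91, and without it the change was -0.70 (adjusted p = 0.35). The same omission brought Gmnn past the threshold at 1.20 (adjusted p = 0.01). Of the 5 rises, that of Mcm4 (adjusted p = 0.029) did not pass when any 1 of 6 single arrays was left out. Arrays of 5 genes were separated upwards from untreated at 1 week, against 18.2% of all genes. The Mcm2 probe set used was not called at 3 days, 4 days or 1 week. Its second probe set was called higher over all probe sets at each of these times (2.15, 1.97 and 1.79).

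With the hybridization control level as a covariate 0 of 10 genes were higher at 3 days, at 4 days or at 1 week and the standard errors were between 1.39 and 1.5 times as large on average. Hybridization controls averaged 9.73 ± 0.32 at 3 days, 9.86 ± 0.11 at 4 days and 9.85 ± 0.15 at 1 week (SD, n = 4 each), against 10.85 ± 0.29 (SD, n = 5) in untreated arrays. In that fit 0.423% of all genes were higher at 3 days, 0.357% at 4 days and 0.517% at 1 week, so 0 of 10 is near the share of all genes. The sign turned for 2 of the 10 genes at 3 days, 5 at 4 days and 5 at 1 week, and the median change of the 10 was 0.07, -0.13 and -0.23 at these times. Of genes called without the covariate, Mcm7 (-0.30 ± 0.63) and Gmnn (-0.29 ± 0.49) turned at 3 days, and Mcm4 at 4 days (-0.10 ± 0.77) and at 1 week (-0.22 ± 0.78). None of these values passed (limma, adjusted p between 0.84 and 0.97), so they show a lost change and no change in the other direction.

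At 2 weeks, 4 weeks and 3 months 0 of 10 genes rose or fell against untreated liver in limma, where 2.8%, 9.33% and 16.7% of all genes rose and 0.605%, 5.39% and 13.4% fell. At an unadjusted p under 0.05 there was 1 gene at 2 weeks (Gmnn, 0.90 ± 0.44) and 0 at 4 weeks and 3 months. Over all probe sets, 1 of the 3 for Cdt1 was called higher at 3 months and 1 of the 5 for Mcm3 lower. Mcm6 read 5.56 and 5.62 at 2 weeks, 4.78, 5.56, 6.10 and 5.37 at 4 weeks, and 4.83, 4.89 and 4.11 at 3 months. At 2 weeks the arrays of 5 genes lay above all untreated arrays (Mcm3, Mcm5, Mcm6, Cdt1 and Gmnn; 15.8% of all genes) and those of 1 gene, Mcm7, below them (13.2%). At 4 weeks this held upwards for 2 genes, Mcm5 and Cdt1, and downwards for 0 (8.31% and 8.34% of all genes). At 3 months Mcm5 read 5.5, 5.65 and 5.39, against 4.05 to 4.92 untreated, and Mcm3 and Mcm5 lay above all untreated arrays and Mcm2 below them (19.0% and 15.8% of all genes), without passing. A fit of the 2 groups alone called 1 gene higher at 2 weeks, 4 at 4 weeks and 2 at 3 months, where it also called 1 lower. The shares of all genes above belong to the fit of all 12 groups. These counts therefore stand without a share and show only that the calls depend on the fit.

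Against 48 hours, the 4-day values were lower in 9 of 10 genes, of which 1, Mcm7, passed (0 higher, 0.352% and 0.643% of all genes higher and lower). Mcm7 read 8.31, 8.93, 7.77 and 7.81 at 4 days, against 9.98, 10.13, 10.35 and 9.51 at 48 hours, a change of -1.78 ± 0.44 (adjusted p = 0.034). The other 8 ran between -0.84 and -2.03 without passing. In 8 genes all 4-day arrays lay below all 48-hour arrays, against 3.03% of all genes. The call of Mcm7 was lost when any 1 of 6 single arrays was left out, and with the hybridization covariate 9 genes fell (2.46% of all genes in that fit). Set against 4 days, 1 week gave 0 genes higher or lower (0.011% of all genes each way), with 0 at an unadjusted p under 0.05.

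Against liver at 3 months, 8 of 10 genes were higher at 48 hours and 0 lower (4.36% and 4.1% of all genes). Mcm6 differed by 4.73 ± 0.84 (adjusted p = 0.00015), Mcm5 by 3.90 ± 0.86, Cdt1 by 3.11 ± 0.59, Cdc6 by 2.87 ± 0.68, Mcm4 by 2.86 ± 0.64, Mcm2 by 2.76 ± 0.48, Mcm3 by 2.69 ± 0.64 and Mcm7 by 2.62 ± 0.48. Gmnn (1.09 ± 0.40, adjusted p = 0.079) and Mcm10 (-1.26 ± 0.72, adjusted p = 0.32) did not pass. This contrast uses none of the untreated arrays, and the hybridization control level averaged 10.38 ± 0.08 at 48 hours (SD, n = 4) and 9.85 ± 0.34 at 3 months (SD, n = 3).

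Over the 12 groups, each of the 10 genes differed among times in the F test, with adjusted p between 1.8e-07 (Cdt1) and 0.0038 (Mcm10), as did 64.6% of all genes. The 48-hour mean was the highest of 9 genes, but its lead over the neighbouring groups did not exceed the spread of arrays everywhere. For Mcm3, Mcm4, Mcm5, Mcm6 and Mcm7 the 48-hour range was overlapped by the 24-hour group alone. For Mcm2 and Cdc6 the 3-day group overlapped it too, for Cdt1 the 3-day and 1-week groups, and for Gmnn the 3-day, 4-day and 1-week groups. For Mcm10 the highest mean was that of 2 weeks (9.47 ± 0.30, SD, n = 2), overlapped by the untreated, 4-week and 3-month arrays, and the lowest that of 6 hours (6.56 ± 0.21, SD, n = 4).

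Because geminin binds Cdt1, the change of the 2 genes was compared within each array as Gmnn minus Cdt1. The difference of signals between 2 probe sets has no meaning as a ratio of transcripts, and only its change between groups shows that the genes moved unequally. At 48 hours the difference averaged -0.50 ± 0.27 (SD, n = 4), against 1.54 ± 0.41 (SD, n = 5) in untreated liver, a change of -2.04 by which Cdt1 had gained more than Gmnn. The smallest p that 4 arrays against 5 allow in the exact two-sided permutation test is 0.016, and the 48-hour comparison gave this p (adjusted p = 0.036 over 16 comparisons).

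The difference was lower than in untreated liver at 7 of 11 times by this exact permutation test, each with an adjusted p of 0.036. The 12-hour change was -1.63, the 24-hour change -1.43 and the 48-hour change -2.04. It was -1.10 after 3 days, -1.26 after 4 days, -1.49 after 1 week and -0.90 after 4 weeks. At 1 hour (-0.29, exact adjusted p = 0.35), 6 hours (-0.43, exact adjusted p = 0.21), 2 weeks (-0.17, exact adjusted p = 0.81) and 3 months (-0.03, exact adjusted p = 1.0) it did not pass. At 6 hours both genes were low, with Cdt1 at 4.01 ± 0.13 and Gmnn at 5.12 ± 0.47 (SD, n = 4). At 12 hours Cdt1 stood at 6.59 ± 0.80 and Gmnn at 6.5 ± 0.45 (SD, n = 4), against 5.04 ± 0.40 and 6.58 ± 0.52 untreated (SD, n = 5).

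Between times, none of the 5 contrasts of this difference passed. It changed by 0.21 for 24 against 12 hours (exact adjusted p = 0.77), -0.62 for 48 against 24 hours (permutation, adjusted p = 0.23), 0.78 for 4 days against 48 hours (exact adjusted p = 0.057), -0.23 for 1 week against 4 days (exact adjusted p = 0.091) and -2.01 for 48 hours against 3 months (exact adjusted p = 0.091, where 0.057 is the smallest p before adjustment). The calls rest on the brightest Cdt1 probe set and on the number of arrays. At 12 hours, 48 hours, 3 days, 4 days, 1 week and 4 weeks the call was lost when any 1 of the 9 arrays was left out, since fewer arrays raise the smallest p. The 24-hour call was lost when any 1 of the 5 untreated arrays was left out. There the exact permutation p with all arrays (0.0037) lay above its smallest possible value (0.00046). Where calls were lost, the exact adjusted p was between 0.057 and 0.082. With the mean of each gene's probe sets, which for Cdt1 includes the set at background, the 7 changes ran between -0.94 and -0.18 and did not pass (exact adjusted p between 0.14 and 0.69). Without the doubted arrays they ran between -2.13 and -0.80 with an exact adjusted p of 0.076 to 0.091.

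**Figure D4:**
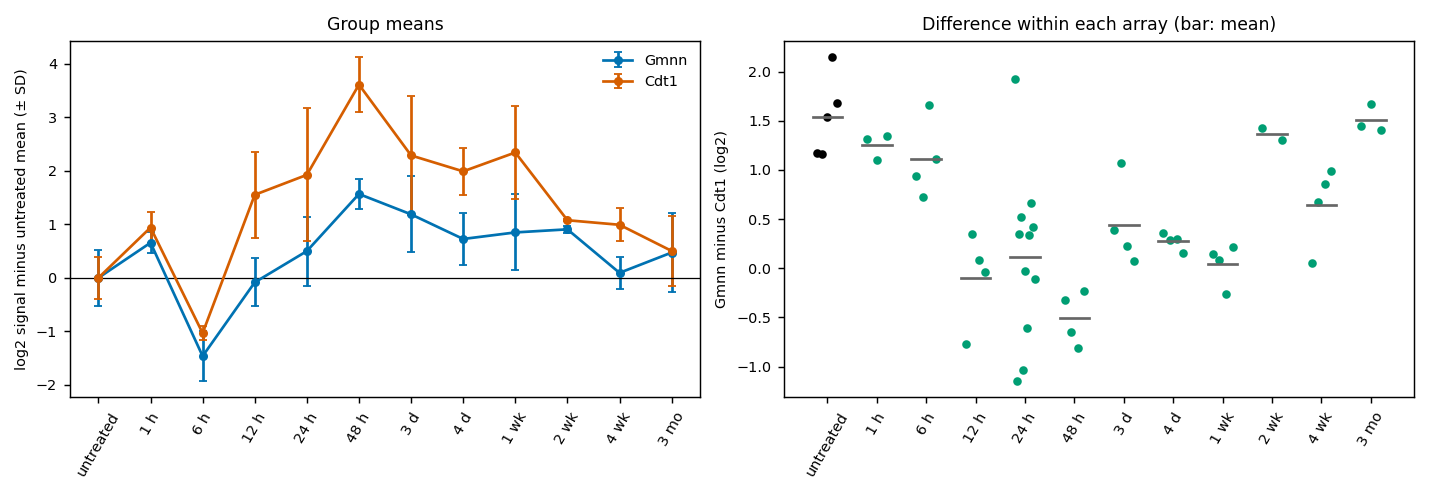
Left, the mean log2 signal of Gmnn (blue) and Cdt1 (orange) minus the untreated mean, with bars of 1 SD, from untreated through 3 months. Right, the Gmnn minus Cdt1 difference in each array (log2, untreated in black), with a bar at each mean, at 1.54 in untreated arrays, -0.50 at 48 hours and 1.51 at 3 months.

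Other genes of the replication pathway were read from lists of names. Of 19 genes of origin recognition and helicase activation, 12 rose at 48 hours, 0 fell and 7 did not pass (17.4% of all genes rose and 13.4% fell), with a median of 0.70, against -0.04 over all genes. Dbf4, the activating subunit of the kinase that phosphorylates the loaded hexamer, read 8.12, 8.28, 8.24 and 6.38 at 48 hours, against 3.55, 4.68, 4.04, 3.76 and 4.69 untreated (3.61 ± 0.48, adjusted p = 3.5e-07). Its catalytic partner Cdc7 stood at 0.07 ± 0.12 (adjusted p = 0.67). The GINS subunits Gins1 (2.34 ± 0.34), Gins2 (1.72 ± 0.36) and Gins4 (1.58 ± 0.21) rose, as did Topbp1 (2.31 ± 0.42), a scaffold of helicase activation. Of the origin recognition complex, Orc6 rose by 2.22 ± 0.29 (adjusted p = 3e-07), while Orc1 stood at -0.26 ± 0.18 (adjusted p = 0.28). Cdc7 and Orc1 were named after their values were seen.

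At 24 hours 5 of these 19 genes had risen and 1 had fallen, near the shares of all genes (18.9% and 12.8%), and 10 were higher at 48 than at 24 hours (3.57% of all genes). The 2 MCM relatives outside the hexamer, which act in recombination, both rose at 48 hours, Mcm8 by 2.08 ± 0.26 (adjusted p = 2e-07) and Mcm9 by 0.74 ± 0.20 (adjusted p = 0.0051). Mcm8 read 5.73, 5.61, 5.47 and 5.06 at 48 hours, against 3.35, 3.60, 3.32, 3.32 and 3.32 untreated, so its untreated signal lay under the median of all probe sets.

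Of 11 regulators of licensing factors 8 rose at 48 hours, 0 fell and 3 did not pass (median 0.66), where 17.4% of all genes rose. Ccna2, the cyclin of S and G2 phase, rose by 4.61 ± 0.65 (adjusted p = 9.8e-07). Dtl, the substrate receptor that marks Cdt1 for destruction in S phase, rose by 2.71 ± 0.52, and Skp2, the receptor of another ligase that targets Cdt1, by 2.23 ± 0.40. Ccne2 (2.55 ± 0.52), Ccne1 (0.89 ± 0.22) and their kinase Cdk2 (0.66 ± 0.17) also rose. At 24 hours 3 of the 11 had risen and 0 had fallen, near the share of all genes that rose (18.9%).

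Of 13 E2F and pocket protein genes 8 rose at 48 hours, 1 fell and 4 did not pass (median 0.79), where 17.4% of all genes rose and 13.4% fell. Rbl1, the pocket protein p107, rose by 3.38 ± 0.50 (adjusted p = 2.2e-06), and E2f8, a repressor of the family, by 2.17 ± 0.54. Tfdp2 (1.27 ± 0.26) and Tfdp1 (1.03 ± 0.16), the dimer partners of E2F factors, E2f2 (1.06 ± 0.25) and E2f1 (0.85 ± 0.21) rose. E2f5 fell by 0.58 on the log2 scale (SE 0.19, adjusted p = 0.017). At 24 hours 4 of the 13 had risen and 0 had fallen (18.9% and 12.8% of all genes). Of 3 measured genes that mark proliferation in general all 3 rose at 48 hours, Mki67 by 5.83 ± 0.76, Top2a by 4.57 ± 0.65 and the sliding clamp Pcna by 2.69 ± 0.36, and Ccnb1 was not measured here.

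**Figure D5:**
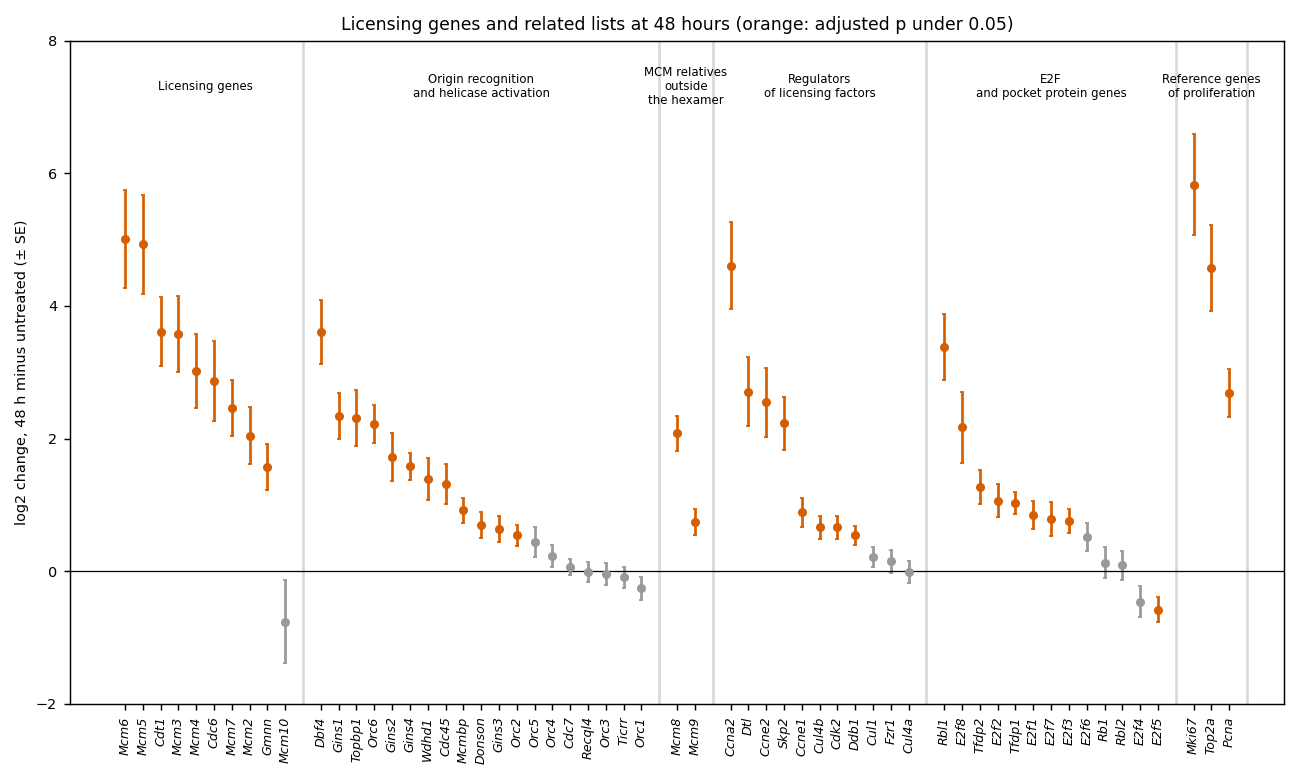
Log2 change, 48 hours minus untreated, ± SE from the limma fit for the 10 licensing genes and 5 lists of related genes, ordered by size within each list, with orange points at an adjusted p under 0.05. Of the licensing genes 9 lie at 1.57 or higher and Mcm10 lies below 0, and of 19 genes of origin recognition and helicase activation 12 are orange.

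The licensing genes varied together over the arrays, with Mcm10 apart. Over the 52 arrays, which share the processing and the time course, Pearson's r of each gene with the mean of the other members ran between 0.792 for Gmnn and 0.972 for Mcm5, but was 0.095 for Mcm10. The genes outside the family whose levels were most like the mean of the 10 were Tcf19 (r = 0.961), Dtl (0.957), Fignl1 (0.953), Uhrf1 (0.95), Atad2 (0.943), Dut (0.941), Topbp1 (0.938) and Ncapg2 (0.937). These values describe the 52 arrays and carry no test.

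Markers of liver cell types were read beside the licensing genes. Of all genes, 17.4% rose and 13.4% fell at 48 hours, and 18.9% rose and 12.8% fell at 24 hours. The marker lists hold few genes, which limits a reading of their counts beside these shares. Of 6 hepatocyte markers 0 rose and 0 fell at 48 hours in limma (1 at an unadjusted p under 0.05), and their summed level ran between 15.98 and 16.07 at 48 hours and between 15.99 and 16.05 in untreated arrays. Of 8 Kupffer cell markers (resident liver macrophages) 5 rose at 48 hours and 0 fell, with a summed level of 8.62 to 10.17, against 7.58 to 8.61 untreated. At 24 hours 7 of the 8 rose, with a summed level of 9.27 to 10.83. Also at 24 hours 2 of 6 hepatocyte markers fell (summed level 15.75 to 16.02), and 2 of 2 erythroid markers fell (5.53 to 8.31, against 8.63 to 8.81 untreated). Of 6 neutrophil markers 0 rose and 2 fell at 48 hours, at 6.45 to 7.04 against 6.59 to 6.88, while at 24 hours 2 rose and 1 fell and the summed level reached 9.90. The 3 measured B cell markers had 48-hour group means below the median of all probe sets, as did 1 of 4 T cell markers. At 48 hours 0 of 5 endothelial, 0 of 3 B cell and 0 of 4 cholangiocyte markers rose or fell in limma (0, 0 and 1 at an unadjusted p under 0.05), while 1 of 4 T cell, 1 of 4 stellate cell and 1 of 2 erythroid markers fell and 0 of them rose. The summed erythroid level was 7.06 to 7.76 at 48 hours, against 8.63 to 8.81 untreated. The part of cell composition in the licensing genes was not tested.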

How the data were processed

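Liver RNA from 52 samples in 12 groups was measured on Affymetrix whole-genome mouse expression arrays. The deposited values are log2 signals of 45101 probe sets, summarized by the authors with RMA in oligo 1.52.0, per the submitters' processing notes. The sources used here do not say if the arrays were normalized as one set. RMA pulls high and low arrays towards one distribution, so a shift shared by all genes cannot be seen. No 2 arrays were identical.

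Of the probe sets, 34958 were annotated to 1 gene, 932 to several and 9211 were not listed. The brightest probe set by its mean over the arrays stood for each of 18194 genes, of which 18033 were named through Entrez IDs (RefSeq, GRCm38.p6). One limma 3.58.1 fit (R 4.3.3) of 12 group means over the 52 arrays gave 16 contrasts, tested two-sided. P-values were adjusted by Benjamini-Hochberg over all 18194 genes, and an adjusted p under 0.05 was a call. The number of arrays limits the precision. The Gmnn minus Cdt1 difference was tested by exact two-sided permutation of arrays, adjusted over the 16 contrasts. The fit was checked on simulated data.

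The 10 genes, the gene lists and the alternatives were chosen with earlier results of these data known. From each list, counts of all measured genes are given, and by name up to 6 called genes with the largest change at 48 hours plus the largest in the rarer direction. The genes most alike are the 8 with the highest Pearson r with the mean of the 10 genes, each centred and scaled over the 52 arrays. Alternatives changed the samples fitted, the prior, array weights, centring, the filter on dim genes, the summary of probe sets and covariates, and left out single or doubtful arrays.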

Additional observations from a re-analysis of the deposited data

Results flagged for a closer look

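In groups of 4 to 10 arrays, the highest or lowest array was compared with the others by Dixon's ratio at its usual critical value, for 80 combinations of gene and group. An array stood apart in 12 of them, where chance gives about 1 in 20. The genes were read on the same arrays and vary together, so the flags are not independent and their excess cannot be weighed. Of the 12 flags, 6 came from 3-day replicate 2, which lay below the other 3 arrays. It read 3.8 for Mcm3 (others 6.29 to 6.54), 5.26 for Mcm4 (7.45 to 7.82), 4.97 for Mcm5 (8.55 to 8.95), 4.80 for Mcm6 (8.25 to 8.79), 6.91 for Mcm7 (9.17 to 9.34) and 5.68 for Cdt1 (7.64 to 8.01).

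The 12-hour replicate 1 stood high for Cdt1 at 7.79 (others 6.08 to 6.36) and for Cdc6 at 3.65 (2.29 to 2.52). The 1-week replicate 4 stood low for Mcm10 at 3.82 (others 7.91 to 8.34) and for Gmnn at 6.38 (7.70 to 7.92). For Mcm2, 48-hour replicate 4 stood low at 8.03 (others 8.77 to 8.81) and 4-day replicate 2 stood high at 7.46 (6.89 to 6.92). The cause was not tested.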

How the results depend on the processing

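The 9 rises at 48 hours against untreated were kept under each alternative tried, except that 8 were called with the hybridization control covariate. Over the 10 genes and 16 contrasts, 91 of 2240 results lost the call under the alternatives other than leaving out 1 array, 107 gained it, and 4 that were called with or without the alternative changed sign. Another 97, called in neither, changed sign, and 48 of these did so with the hybridization control covariate. With 1 array left out, 54 of 8320 lost and 33 gained the call, 0 called results reversed, and 35 called in neither fit changed sign. The sign changes of called results came with the hybridization control covariate: Mcm7 and Gmnn at 3 days stood at -0.30 and -0.29, and Mcm4 stood at -0.10 at 4 days and -0.22 at 1 week. None of these values passed in that fit (limma, adjusted p between 0.84 and 0.97). Unless stated, counts of the 10 genes are of those higher, and contrasts are against untreated. The counts that follow stand without the share of all genes in the same fit, so they show only how the calls moved. With the 2 compared groups alone, the count was 1 at 1 hour, 5 at 12 hours, 8 at 4 days, 1 at 2 weeks, 4 at 4 weeks, 2 at 3 months and 1 for 48 against 24 hours. That fit called lower 5 at 6 hours, 1 at 48 hours, 1 at 3 days, 0 at 1 week, 1 at 3 months, 5 for 4 days against 48 hours and 1 for 48 hours against 3 months. Same-numbered arrays of different groups did not deviate together in the median (r -9e-04 over 224 pairs, and 0.0038 over 988 pairs of unlike number). This gave no sign that the numbers pair the samples. It cannot exclude pairing, since a median over many pairs can hide a shared batch in some groups. With the replicate block, 2 were higher and 0 lower at 12 hours, 0 lower at 24 hours, 2 higher for 48 against 24 hours and 2 lower for 4 days against 48 hours. The filter on dim genes (10916 genes kept) gave 2 at 12 hours. Median centring gave 2 higher and 0 lower at 12 hours and 0 lower at 24 hours, the trended and robust prior 0 lower at 24 hours, and the mean of probe sets 1 lower at 3 days. Array weights gave 3 at 12 hours, 8 higher and 0 lower at 1 week, 6 for 24 against 12 hours and 7 lower for 4 days against 48 hours. The hybridization control covariate gave 0 at 12 hours, 24 hours, 3 days, 4 days and 1 week, 0 lower at 1 week and 9 lower for 4 days against 48 hours. The poly-A covariate gave 0 higher and 0 lower at 12 hours, 0 lower at 24 hours, 3 higher at 3 days, 0 at 4 days, 0 lower at 1 week, 0 lower for 4 days against 48 hours and 1 lower for 48 hours against 3 months. The Gapdh covariate gave 0 higher and 0 lower at 12 hours, 3 higher and 0 lower at 24 hours, 4 at 3 days and 1 at 1 week. Without the 3 arrays with Xist signal, 0 were lower at 24 hours and 2 higher for 48 against 24 hours. Without the 7 doubtful arrays, 0 were lower at 24 hours, 1 lower at 3 days, 0 lower at 1 week, 6 higher for 24 against 12 hours, 2 higher for 48 against 24 hours, 2 lower for 4 days against 48 hours and 1 lower for 48 hours against 3 months. Without 24-hour replicates 2 and 5, 2 were higher at 12 hours and 3 lower for 4 days against 48 hours. Leaving out 1 array moved the count at 12 hours between 0 and 2 higher and between 0 and 1 lower, the lower counts at 24 hours and at 1 week between 0 and 1, the higher count for 48 against 24 hours between 2 and 9, and the lower count for 4 days against 48 hours between 0 and 2. The change of Gmnn minus Cdt1 with the mean of probe sets was -0.94 after 12 hours, -0.69 after 24 hours, -0.60 after 48 hours, -0.18 after 3 days, -0.49 after 4 days, -0.60 after 1 week and -0.54 after 4 weeks. Without the 7 doubtful arrays it was -1.73, -1.86, -2.13, -1.19, -1.35, -1.64 and -0.80 in the same order. Leaving out 1 array gave, in that order, -1.78 to -1.41, -1.61 to -1.27, -2.14 to -1.89, -1.31 to -0.95, -1.36 to -1.11, -1.59 to -1.34 and -1.01 to -0.70, and the call was lost in all 9 omissions at each of these times but 24 hours, where it was lost in 5 of 16. For 48 against 24 hours it was -0.89 without 24-hour replicates 2 and 5. Except where the text gives a value, the cause was not tested. With signals near the median of all probe sets, as in untreated Mcm3, Mcm5, Mcm6 and Cdc6, folds may be understated. The folds given are estimates with the error of the fit.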
